A study of Mus musculus with 28 samples.

Results

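The Reg genes Reg1, Reg2, Reg3a, Reg3b, Reg3d and Reg3g were followed in RNA of mouse pancreatic islets. They were chosen by name, as the rows of the deposited table with these symbols, and are 6 of its 14219 genes. All 6 passed the filter on low values, which kept 13591 genes with at least 1 CPM (the read count scaled to the library size) in at least 6 libraries. Reg4 was not analysed here. The study asked which genes differ with the β-cell deletion of the transcription factor Klf6, with and without an insulin receptor antagonist, the peptide S961. Each of the 28 libraries came from the islets of 1 male mouse of 10 to 12 weeks on a mixed C57Bl6 and 129sv background. Every mouse carried floxed Klf6 on both alleles. Those labelled βKlf6KO (Klf6 flox/flox; Ins1Cre/+) also carried Cre in 1 Ins1 allele, which is active in β cells and not in the acinar, duct or immune cells that remain among picked islets. Those labelled control (Klf6 flox/flox; Ins1+/+) had no Cre. The labels gave 8 βKlf6KO S961, 8 control S961, 6 βKlf6KO saline and 6 control saline libraries.

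Reg genes encode small secreted proteins with a C-type lectin fold, named after the first member, which was found in regenerating rat islets. Acinar cells of the exocrine pancreas are a main source of these proteins, and their RNA rises in pancreatitis. Islet cells can also make some of them under stress or inflammation. Signals through gp130-type receptors and STAT3 are known inducers of the Reg3 branch, and Extl3 has been proposed as a receptor.

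The 6 genes lie in 1 cluster on chromosome 6 of GRCm38. In GENCODE M21 they run in the order Reg3b (ENSMUSG00000071356, 78370657 to 78373466, plus strand), Reg3d (ENSMUSG00000068341, 78375874 to 78378865, minus strand) and Reg3a (ENSMUSG00000079516, 78380709 to 78383827, plus strand). Then follow Reg2 (ENSMUSG00000023140, 78395623 to 78408106, plus strand), Reg1 (ENSMUSG00000059654, 78422711 to 78428667, plus strand) and Reg3g (ENSMUSG00000030017, 78466269 to 78468872, minus strand). No stretch of 125 bases, the read length, in any transcript of the 6 genes occurred in a transcript of another gene, so exact copies could not have shared whole reads between them.

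The 250 bases before the RefSeq start are shown for 4 members, 5′ to 3′ on the gene's strand (GRCm38.p6). For Reg1, Reg2 and Reg3b the RefSeq start lies downstream of the GENCODE M21 start. The windows of Reg1 and Reg2 therefore lie inside the GENCODE genes given above, and that of Reg3b overlaps its gene. Reg3a and Reg3b are shown because they passed a test below, Reg3g because its level ran most closely with that of Reg3b, and Reg1 because it was the most abundant member. Capitals mark TTCNNNGAA (the spaced pair bound by STAT factors), TATAAA (the TATA box) and CACCTG (an E-box), each searched on both strands. None of the 3 motifs overlapped another in these windows. The windows are chr6:78380459-78380708 (plus) for Reg3a, chr6:78370635-78370884 (plus) for Reg3b, chr6:78468875-78469124 (minus) for Reg3g and chr6:78425733-78425982 (plus) for Reg1.
Reg3a: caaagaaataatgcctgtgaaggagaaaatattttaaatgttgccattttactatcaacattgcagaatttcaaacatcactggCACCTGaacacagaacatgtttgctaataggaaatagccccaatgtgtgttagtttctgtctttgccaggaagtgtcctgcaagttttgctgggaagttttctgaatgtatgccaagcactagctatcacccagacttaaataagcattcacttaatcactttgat
Reg3b: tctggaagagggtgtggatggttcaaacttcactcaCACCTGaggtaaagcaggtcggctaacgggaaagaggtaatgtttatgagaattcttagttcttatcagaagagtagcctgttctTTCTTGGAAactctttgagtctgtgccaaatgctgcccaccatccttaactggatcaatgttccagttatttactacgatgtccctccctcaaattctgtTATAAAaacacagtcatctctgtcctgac
Reg3g: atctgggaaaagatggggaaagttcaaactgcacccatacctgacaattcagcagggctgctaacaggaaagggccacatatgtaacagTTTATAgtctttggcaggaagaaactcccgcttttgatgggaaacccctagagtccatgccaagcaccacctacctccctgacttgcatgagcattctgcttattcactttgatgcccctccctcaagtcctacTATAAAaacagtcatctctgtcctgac
Reg1: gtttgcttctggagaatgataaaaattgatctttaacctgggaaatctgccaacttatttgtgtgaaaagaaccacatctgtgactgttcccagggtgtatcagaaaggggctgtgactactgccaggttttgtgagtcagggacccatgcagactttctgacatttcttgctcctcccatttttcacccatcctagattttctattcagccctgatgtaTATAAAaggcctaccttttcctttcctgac

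TTCNNNGAA was found in 2 of the 6 windows, those of Reg3b (129 to 121 bases before the start) and Reg3d, and in 7.02% of 32851 mouse promoter windows of the same length. TATAAA was found in 4 of 6, those of Reg1, Reg2, Reg3b and Reg3g, and in 12.4% of all windows. The E-box CACCTG, chosen after the sequences were seen, was found in 4 of 6, those of Reg2, Reg3a, Reg3b and Reg3d, and in 17.2% of all windows. The KLF-type motif CCNCNCCC was found in 3 of 6 and in 45.9% of all windows, the AP-1 motif TGANTCA in 1 of 6 and in 6.75%, and the longer PTF1 motif in 0 of 6 and in 0.00913%. The windows of Reg3b and Reg3g ended in the same 20 bases, acagtcatctctgtcctgac, directly before the start. Of the 15 pairs of windows, 12 shared a run of at least 8 bases, and 20 was the longest. How often pairs of other promoter windows share such runs was not counted, so these numbers do not show likeness among the members. A match is a string of letters, and binding was not measured.

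Before the members, the labels and the tissue were checked. Klf6 RNA was not lower in libraries labelled βKlf6KO. It stood at 7.22 ± 0.51 log2 CPM in βKlf6KO S961 libraries and 6.94 ± 0.72 in control S961 libraries (SD, n = 8 each), and at 6.97 ± 0.26 in βKlf6KO saline and 7.0 ± 0.42 in control saline libraries (n = 6 each). Counts per gene do not separate the floxed part of Klf6 from the rest, so the deletion itself was not measured here. All genotype differences below are therefore differences between libraries labelled so. Each library held 28868638 to 45001633 reads of listed genes, and the lowest member value, Reg3a in a control S961 library, was far above the 0.0685 to 0.105 CPM that 3 reads gave. The islet hormone Ins2 was at a median of 15.83, 15.69, 16.10 and 16.30 log2 CPM in βKlf6KO S961, control S961, βKlf6KO saline and control saline libraries. Its range was wider under the control label, from 12.31 to 17.24 in control S961 and from 13.16 to 16.67 in control saline libraries. It ran from 14.22 to 16.5 in βKlf6KO S961 and from 15.25 to 16.5 in βKlf6KO saline libraries. Acinar enzymes were present in every library. The elastase Cela1 ranged from 9.58 to 14.71 log2 CPM. Labelled control S961 replicates 2 and 8 and control saline replicate 4 stood apart on the first principal component (54.9% of the variance), and results are given without them where that changed a call.

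Per kilobase of exon, Reg1 was the highest member in 28 of 28 libraries, at a median of 2320 CPM per kilobase. Reg2, known in mouse islets as a target of autoimmunity, came after it in all 28 (median 1050), and Reg3b, the pancreatitis-associated protein, came next in all 28 (median 474.5). Reg3a, a close relative of Reg3b, followed in 22 libraries (median 158), and Reg3d (median 60.7) took that place in the other 6. Reg3g, a bactericidal lectin in mouse gut, had the lowest median (28.5) and was the lowest in 25 libraries. Its place in this order rests on an annotated exon length of 2114 bases, against 782 to 1142 for the others. As shares of the family's summed CPM, Reg1 held a median of 50.3% and Reg2 28.7%. Reg3a held a median of 4.71%, but from 0.354% to 8.37% over the 28 libraries. The summed CPM of all 6 ran from 1249 to 13764.

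The members also varied widely among mice of 1 group. The within-group SD of Reg3a was 1.27 log2 CPM, higher than that of 98.8% of the 13591 genes, whose median SD was 0.361. The other 5 members had within-group SDs of 0.735 (Reg3d) to 0.875 (Reg3b). Against the 500 genes nearest to each member in mean level, the 6 SDs lay at percentiles 96 to 99.8.

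**Figure D1:**
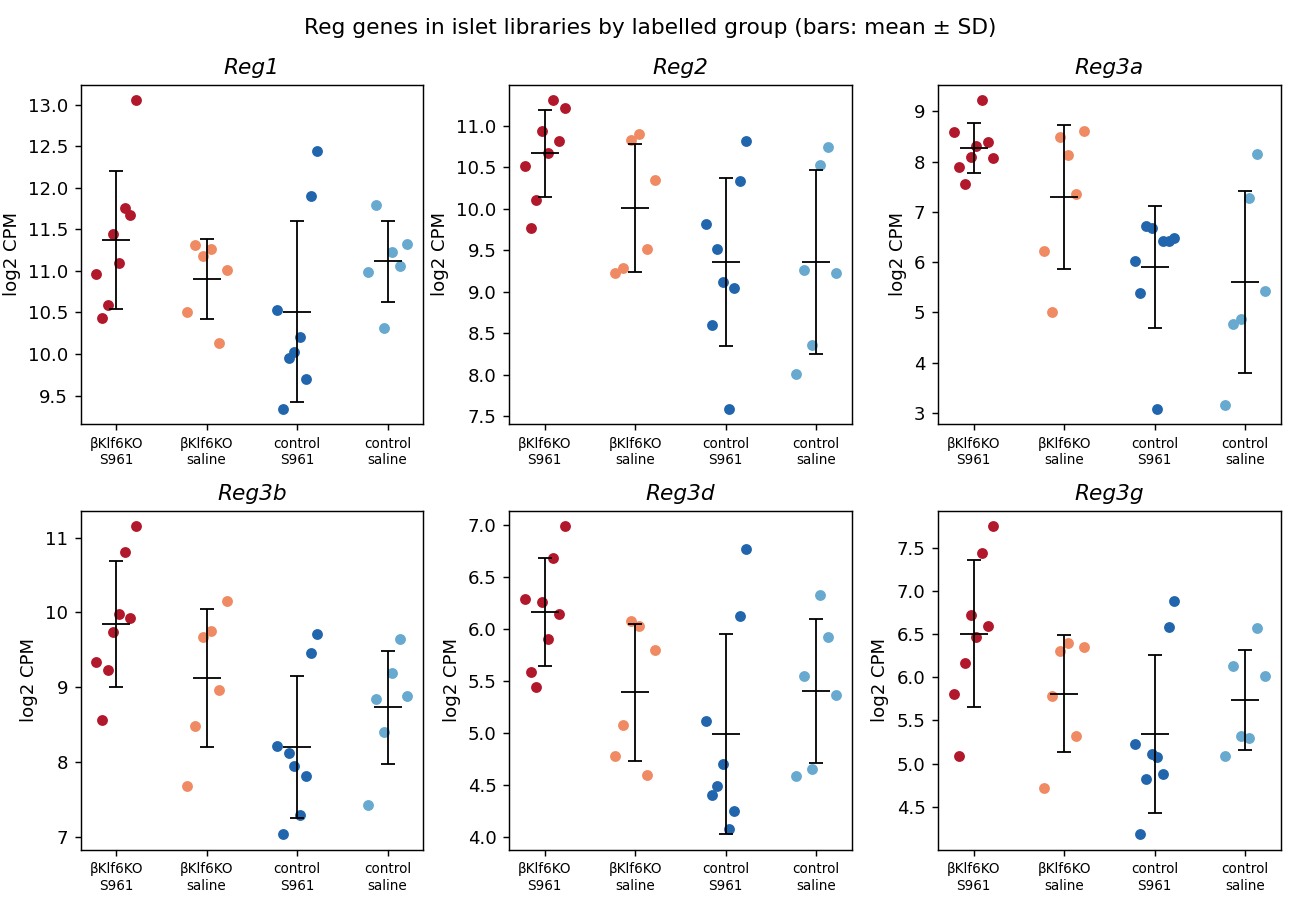
Level of each Reg gene in log2 CPM (y axis, its own range in each panel) in the 28 libraries, 1 point per mouse, by labelled group (x axis), with bars for the mean ± SD. Reg3a is the only panel in which the 8 βKlf6KO S961 points all lie above the 8 control S961 points.

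After S961, Reg3a and Reg3b were higher under the βKlf6KO label than under the control label, 5.16-fold and 3.12-fold on the fitted log2 scale. These 2 of 6 members passed the test, where 4.36% of all 13591 genes did and 2.35% did as higher. The share of all genes called moved with single libraries. It was 1.59%, 1.39% and 1.80% without control S961 replicates 2, 3 and 5, 2.55%, 1.30%, 1.55% and 1.41% without βKlf6KO S961 replicates 5, 6, 7 and 8, and 3.24% to 6.01% without any other library of these groups. All 6 differences were above 0, with a median of 1.24 on the log2 scale against 0.02 for all genes, and 52.4% of all genes were above 0. All 6 had an unadjusted p under 0.05 in limma, as did 22.9% of genes. The members were correlated with one another, as given below, so these are not 6 separate observations. In bulk islet RNA, more cells of a type that makes a Reg protein and more Reg RNA per cell cannot be told apart.

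Reg3a RNA had 7.56, 8.21 and 9.22 log2 CPM as lowest, median and highest of the 8 βKlf6KO S961 libraries, against 3.09, 6.42 and 6.73 in the 8 control S961 libraries. Every βKlf6KO S961 library lay above every control S961 library, which held in that direction for 0.103% of genes. The difference was 2.37 ± 0.60 on the log2 scale (SE; limma adjusted p = 0.0293), and the two-sided exact permutation test gave the smallest p that 8 against 8 libraries allow (0.000155, unadjusted). Control S961 replicate 5, at 3.09, stood well below the next control library at 5.39. Without it the difference was 1.97 and the adjusted p 0.0586. The groups do not overlap with or without that library, since it is the lowest of the lower group. The call also ended without control S961 replicate 2 or βKlf6KO S961 replicates 6, 7 or 8, at differences of 2.23 to 2.40 and adjusted p of 0.0537 to 0.0723.

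Reg3b RNA had 8.56, 9.83 and 11.15 log2 CPM in the βKlf6KO S961 libraries, against 7.03, 8.03 and 9.71 in the control S961 libraries (lowest, median and highest). The groups overlapped, with 5 of 8 βKlf6KO S961 libraries above the highest control S961 library and all 8 above the control mean. The difference was 1.64 ± 0.42 (SE; limma adjusted p = 0.0291, exact permutation p = 0.00326 unadjusted). The call ended without control S961 replicates 2, 3 or 5 or βKlf6KO S961 replicates 6, 7 or 8, at differences of 1.45 to 1.63 and adjusted p of 0.0546 to 0.0734.

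Reg2, Reg3d and Reg3g lay near the threshold on the other side. Reg2 had 9.77, 10.74 and 11.30 log2 CPM in βKlf6KO S961 libraries and 7.59, 9.31 and 10.81 in control S961 libraries (lowest, median and highest), a difference of 1.31 ± 0.41 (SE; limma adjusted p = 0.0632). Reg3d, related to the hamster islet neogenesis-associated protein, had 5.44, 6.20 and 6.99 in βKlf6KO S961 libraries and 4.08, 4.60 and 6.77 in control S961 libraries, a difference of 1.17 ± 0.35 (adjusted p = 0.0514). Reg3g had 5.09, 6.53 and 7.75 in βKlf6KO S961 libraries and 4.18, 5.09 and 6.88 in control S961 libraries, a difference of 1.16 ± 0.38 (adjusted p = 0.0678). In all 3 the groups overlapped, and control S961 replicates 7 and 8 were the highest controls. Without replicate 7, and likewise without replicate 8, all 3 passed the test and 5 of 6 members were called, as were 4.61% of all genes without replicate 7 and 5.34% without replicate 8.

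Reg1 had the smallest difference of the 6. Its libraries stood at 10.43, 11.27 and 13.05 log2 CPM in βKlf6KO S961 and at 9.34, 10.11 and 12.44 in control S961 (lowest, median and highest). The difference was 0.86 ± 0.38 (SE; limma adjusted p = 0.177, exact permutation p = 0.0965 unadjusted). βKlf6KO S961 replicate 8 and control S961 replicates 7 and 8 were the highest of their groups, and 1 βKlf6KO S961 library lay above the highest control.

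**Figure D2:**
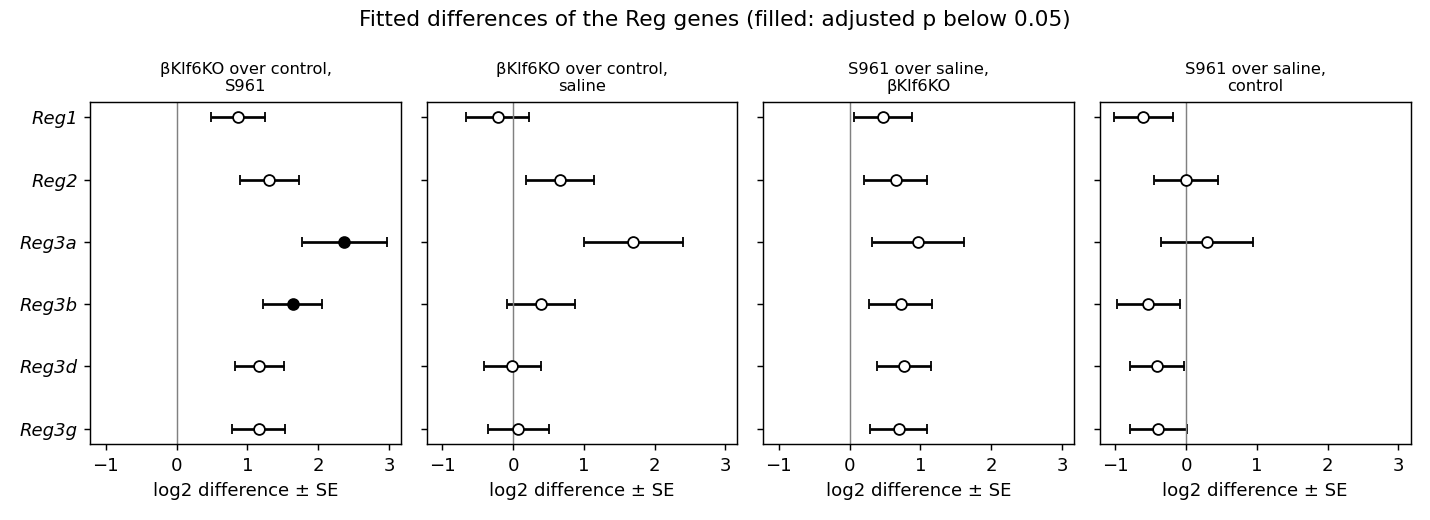
Fitted log2 difference (x axis) of each Reg gene (rows) in 4 comparisons (panels), with bars for the standard error and filled points for an adjusted p below 0.05. The 2 filled points are Reg3a (2.37) and Reg3b (1.64) in βKlf6KO over control after S961.

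Sequencing lane, the batch that the labels give, held 2 libraries of each S961 group in each of lanes 4, 5, 6 and 7. Within these lanes the βKlf6KO minus control difference of Reg3a was 1.99, 3.87, 1.82 and 1.79. That of Reg3b was 1.46, 2.10, 2.05 and 0.96. Reg1 ranged from 0.19 to 1.34 over the lanes, and Reg3d from 0.12 in lane 7 to 1.69 in lane 6. All 24 lane values were above 0. Each rests on 2 against 2 libraries and the members were correlated, so these are not 24 separate observations. The share of all genes above 0 in every lane was not computed. With lane as a covariate, 5 of 6 members were called, all but Reg1, as were 4.93% of all genes.

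Some acinar genes were also higher in the βKlf6KO S961 libraries. Of 35 acinar genes tested, 3 passed the test, all higher, where 4.36% of all genes passed it. Of the 35, 34 had a difference above 0, with a median of 0.96, and 52.4% of all genes were above 0. The called genes were the trypsinogens Try5 (1.45 ± 0.34, adjusted p = 0.0198) and Prss3 (2.11 ± 0.52, adjusted p = 0.0252) and the trypsin inhibitor Spink1 (1.30 ± 0.35, adjusted p = 0.0346). Prss2 averaged 12.33 ± 0.63 log2 CPM in βKlf6KO S961 libraries and 11.24 ± 0.96 in control S961 libraries (SD, n = 8 each; adjusted p = 0.0562). The other fixed acinar markers were further from the threshold, at differences of 0.47 to 0.96 (adjusted p = 0.152 to 0.400). The summed CPM of the 35 genes had a lowest, median and highest value of 37633, 40252 and 145110 in βKlf6KO S961 libraries, against 8404, 32538 and 54653 in control S961 libraries. The highest was βKlf6KO S961 replicate 8 and the lowest control S961 replicate 2. The groups overlapped in this sum.

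The 6 members did not stand alike beside the acinar genes. The difference of Reg3a was above those of all 35 acinar genes, that of Reg3b above 33, Reg2 above 31, Reg3d and Reg3g above 25 each, and Reg1 above 14. With the acinar mean as a covariate the Reg3a difference was 2.38 and its adjusted p 0.106, while that of Reg3b was 0.90 (adjusted p = 0.346). Under the same covariate Reg2 stood at 0.84, Reg3d at 0.57, Reg3g at 0.31 and Reg1 at -0.06, and 0 of 6 members were called by limma. The covariate also took the calls over all genes to 102, against 593 without it, and whether acinar RNA is the source of the Reg differences was not tested.

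Both calls also ended with weights for library quality (adjusted p = 0.0601 for Reg3a and 0.0635 for Reg3b), and that of Reg3b ended when only the groups compared were fitted (adjusted p = 0.0916). Without the 3 libraries that stood apart, 5 of 6 members were called, all but Reg1, as were 6.31% of all genes.

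**Figure D3:**
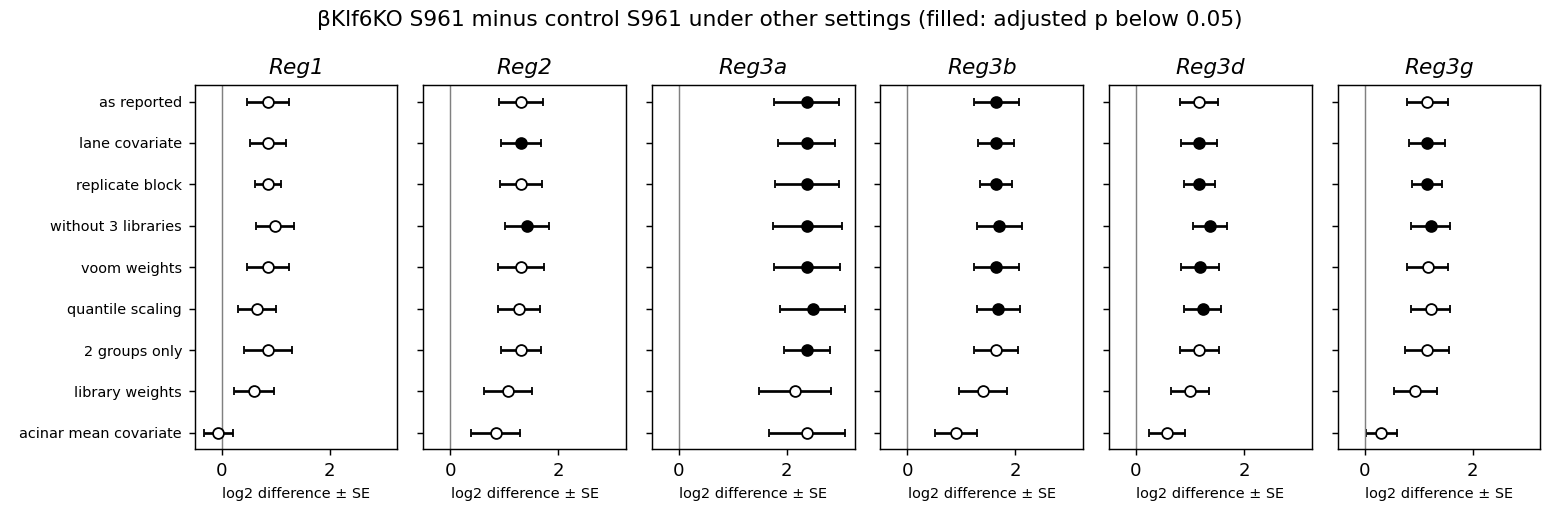
βKlf6KO S961 minus control S961 log2 difference ± SE (x axis) of each Reg gene (panels) as reported and under 8 other settings (rows), filled where the adjusted p was below 0.05. Reg3a keeps a difference of 2.14 to 2.48 in every row, and Reg3b falls to 0.90 and Reg1 to -0.06 with the acinar mean as a covariate.

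After saline, 0 of 6 members passed the limma test for βKlf6KO over control, where 2.78% of all genes did. That share was 1.57% to 1.79% without control saline replicates 1, 2, 3 or 6 or βKlf6KO saline replicates 3, 4 or 6. Of the members 1, Reg3a, had an unadjusted p under 0.05, as did 14.4% of genes, and 4 of 6 differences were above 0, against 49.9% of genes. Reg3a had 5.01, 7.74 and 8.61 log2 CPM in the 6 βKlf6KO saline libraries and 3.15, 5.14 and 8.14 in the 6 control saline libraries (lowest, median and highest). The difference was 1.70 ± 0.70 (SE; adjusted p = 0.223, exact permutation p = 0.0931 unadjusted), and the groups overlapped, with 2 of 6 βKlf6KO saline libraries above the highest control. With weights for library quality it was 2.63 (adjusted p = 0.00103), in a fit that called 22.2% of all genes. Without 1 library the difference ran from 1.21 to 2.21.

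The other members were closer between the saline groups. Reg2 differed by 0.66 ± 0.48 (adjusted p = 0.607), with 9.22, 9.93 and 10.90 log2 CPM in βKlf6KO saline and 8.01, 9.24 and 10.74 in control saline libraries (lowest, median and highest). With library weights Reg2 was also called, at 1.20 (adjusted p = 0.0190), as were 22.2% of all genes. Reg3b differed by 0.39 ± 0.48, Reg3g by 0.08 ± 0.43, Reg3d by -0.01 ± 0.40 and Reg1 by -0.22 ± 0.44 (SE; adjusted p of 0.809 to 0.994). The signs for Reg3d and Reg3g turned under other settings. Acinar genes had a median difference of -0.06 after saline, with 0 of 35 called and 10 above 0, and their summed CPM ran from 24371 to 60241 (median 46134) in βKlf6KO saline and from 24315 to 60096 (median 43620) in control saline libraries. Of all genes 2.78% were called after saline. Macrophage genes were higher there, 5 of 14 called, among them Csf1r (1.12, adjusted p = 0.0357), Fcgr3 (1.04) and H2-Aa (1.34), and so was the B cell gene Cd22 (2.40). Their part in the saline values of Reg3a was not tested.

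S961 against saline gave no call for any member in either genotype. In libraries labelled βKlf6KO all 6 differences were above 0, where 50.8% of genes were, from 0.47 ± 0.41 for Reg1 to 0.97 ± 0.65 for Reg3a (SE; limma adjusted p = 0.9997 for each). Of the 6, 0 had an unadjusted p under 0.05 in limma, and 0% of all genes were called, with 3.04% under 0.05 unadjusted. Reg3d was nearest, at 0.77 ± 0.38 (unadjusted limma p = 0.0512, unadjusted exact permutation p = 0.0330). The exact permutation p of the other members was 0.0859 to 0.249, unadjusted. Of the 35 acinar genes 0 were called there, and 34 had a difference above 0, at a median of 0.45. In libraries labelled control Reg1 (-0.61 ± 0.41), Reg3b (-0.53 ± 0.45), Reg3d (-0.41 ± 0.38) and Reg3g (-0.39 ± 0.41) were below 0, Reg3a stood at 0.30 ± 0.65 and Reg2 at 0.0011 ± 0.45. Again 0 of 6 were called or had an unadjusted p under 0.05 in limma, where 0% of genes were called and 0.765% were under 0.05 unadjusted. The 35 acinar genes had a median of -0.57 there, with 0 above 0.

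The S961 response in βKlf6KO libraries minus that in control libraries was above 0 for all 6 members and for 51.6% of genes. It was 1.25 ± 0.63 for Reg3b, 1.18 ± 0.53 for Reg3d, 1.09 ± 0.57 for Reg3g, 1.08 ± 0.59 for Reg1, 0.67 ± 0.92 for Reg3a and 0.65 ± 0.63 for Reg2 (SE). None passed the test (limma adjusted p = 1 for each), and 0% of all 13591 genes did, and only Reg3d had an unadjusted p under 0.05 (0.0354), as did 2.58% of genes. The genotype differences after S961 and after saline are therefore not shown to differ. For Reg3a they were 2.37 and 1.70, and for Reg3b 1.64 and 0.39.

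Across the 28 libraries the members fell along a range of likeness to acinar RNA. Pearson's r between a member's log2 CPM and the mean of the 35 acinar genes was 0.84 for Reg1, 0.81 for Reg3g, 0.70 for Reg3b, 0.68 for Reg3d, 0.50 for Reg2 and 0.25 for Reg3a. Spearman's rho was 0.78, 0.72, 0.63, 0.64, 0.56 and 0.31 in the same order of genes. The permutation p was 1e-05 for r of Reg1 and Reg3g, the smallest that 100000 resamples give, 0.00709 for Reg2 (adjusted 0.00784) and 0.208 for Reg3a (adjusted 0.208), adjusted over the 21 relations computed. Without the 2 libraries farthest from the median acinar mean, control S961 replicate 2 and βKlf6KO S961 replicate 8, r was 0.75 for Reg1, 0.72 for Reg3g, 0.54 for Reg3b, 0.61 for Reg3d, 0.38 for Reg2 and 0.13 for Reg3a. The permutations shuffled libraries across the 4 groups, so their p also takes in differences between groups. With group means removed, r was 0.81 for Reg1, 0.76 for Reg3g, 0.60 for Reg3b, 0.57 for Reg3d, 0.38 for Reg2 and -0.0036 for Reg3a.

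**Figure D4:**
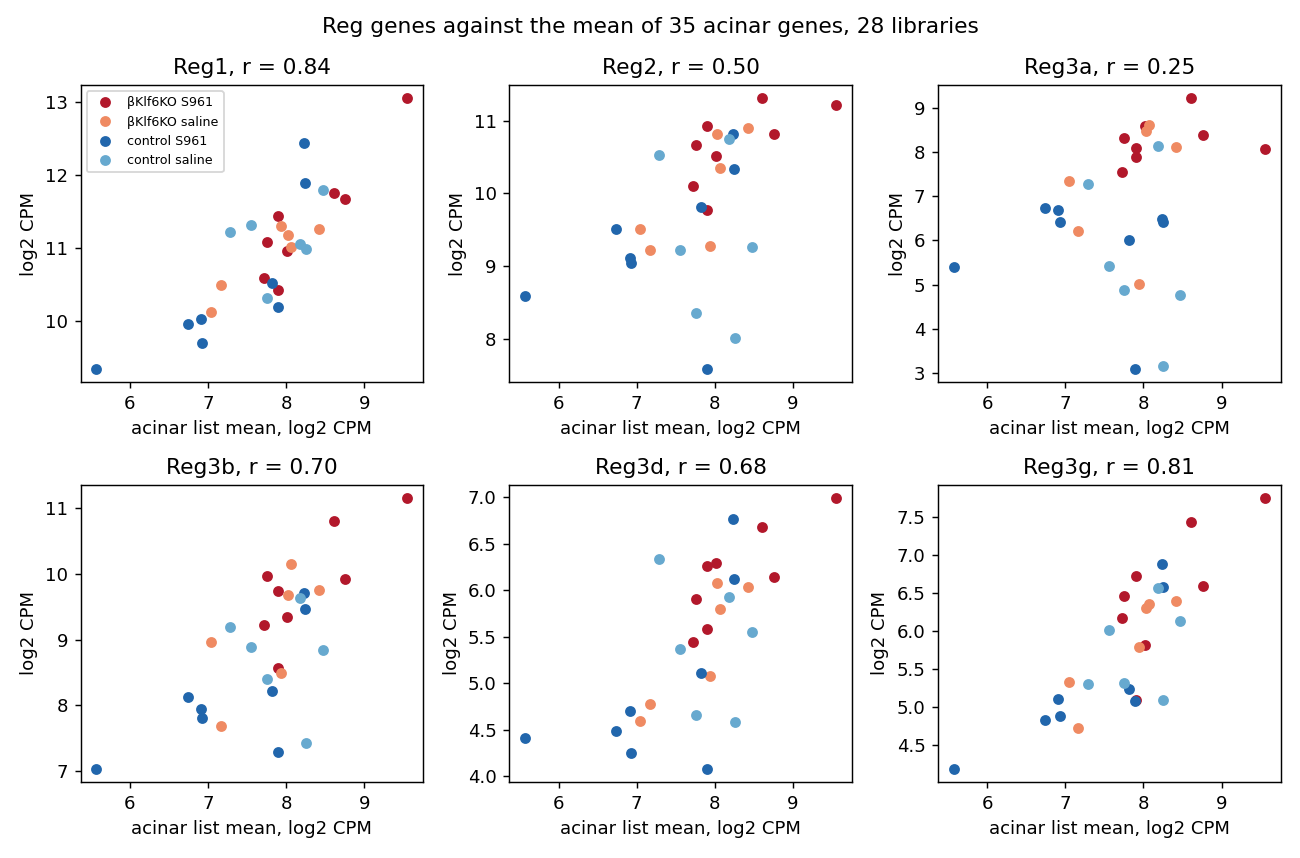
Level of each Reg gene (y axis, log2 CPM) against the mean log2 CPM of 35 acinar genes (x axis) in the 28 libraries, coloured by labelled group. Reg1 climbs with the acinar mean (r = 0.84), while Reg3a spreads over its range at like acinar means (r = 0.25).

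Values of r within single groups rest on few libraries, and their difference between groups was not tested. Within the 6 control saline libraries r with the acinar mean was 0.27 for Reg1 and 0.35 for Reg3g, and it was below 0 for Reg2 (-0.26), Reg3a (-0.36), Reg3b (-0.24) and Reg3d (-0.32). Within the 8 control S961 libraries it was 0.82 for Reg1 and -0.09 for Reg3a, and within the 8 βKlf6KO S961 libraries 0.92 for Reg1 and 0.27 for Reg3a. The Reg3a level relative to the acinar mean averaged -0.01 ± 0.70 in βKlf6KO S961 and -1.39 ± 1.59 in control S961 libraries (log2, SD, n = 8 each). In βKlf6KO saline libraries it averaged -0.48 ± 1.33 and in control saline libraries -2.31 ± 2.03 (n = 6 each). The Reg1 level relative to that mean averaged 3.10 ± 0.35 in βKlf6KO S961 and 3.22 ± 0.63 in control S961 libraries, closer than their spread.

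Among themselves the members varied together to differing degrees. The highest r over 28 libraries were those of Reg3b with Reg3g (0.93), Reg2 with Reg3d (0.90), Reg2 with Reg3b (0.90), Reg3b with Reg3d (0.90) and Reg2 with Reg3a (0.88). Each had a Spearman's rho of 0.81 to 0.92 and a permutation p of 1e-05 (adjusted 1.6e-05), and without the 2 libraries farthest out r was 0.82 to 0.90. With group means removed, r of these pairs was 0.82 to 0.91. Reg1 with Reg3a had r = 0.28 and rho = 0.25 (permutation p = 0.152, adjusted 0.160, for r). That r was 0.26 without the 2 farthest and 0.14 with group means removed. For Reg3b, Reg3g ranked first of 13590 other genes in r, and for Reg3a, Reg2 ranked second.

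**Figure D5:**
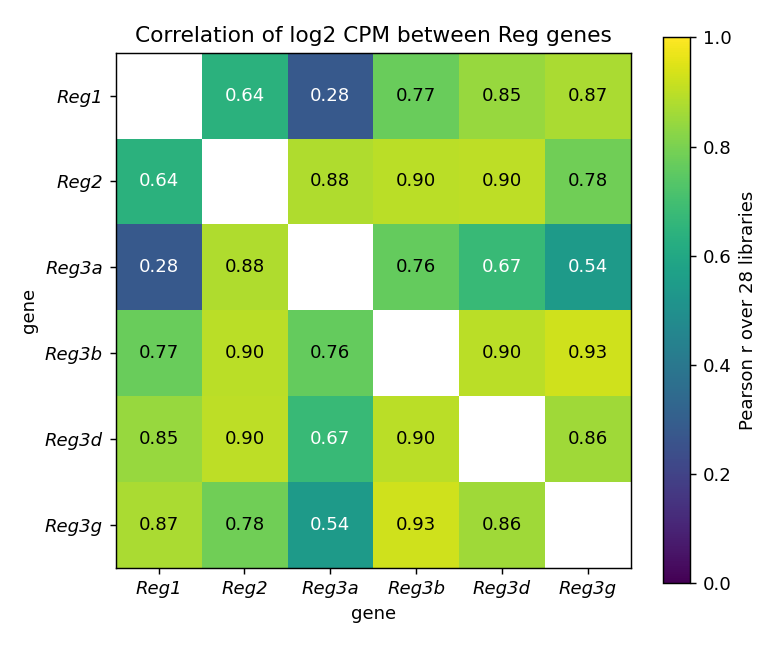
Pearson's r of log2 CPM over 28 libraries for each pair of Reg genes, on a colour scale from 0 to 1. Reg1 with Reg3a is the lowest at 0.28, and Reg3b with Reg3g the highest at 0.93.

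Outside the family, the genes most like each member differed between Reg1 and Reg3a. For Reg1 they were the acinar transcription factor Ptf1a (r = 0.96), Cth (0.96), Gjb2 (0.94), Cuzd1 (0.94) and the lipase-related Pnliprp2 (0.94), of which 3 of 5 are on the acinar list. For Reg3d they were Spink1 (0.98), Ppic (0.96), Serpinb1a (0.96), Stbd1 (0.95) and Antxr2 (0.95). For Reg3g they were Lrrc8e (0.94), Tspan1 (0.93), St6galnac2 (0.93), Pnliprp2 (0.93) and Tpm1 (0.93), and each of these sets held 1 gene on the acinar list. For Reg3b they included Itpripl1 (0.93), Tspan1 (0.91), Erp27 (0.90) and Ppic (0.89). For Reg2 they were Tpbg (0.90), Plk2 (0.90), Cdca7l (0.89), Tinag (0.88) and Enpp1 (0.88), and 0 of those named for either are on the acinar list. For Reg3a they were Kdelr3 (0.90), Igbp1 (0.84), Adcy7 (0.83), the collagen cross-linking enzyme Lox (0.83) and LOC102643089 (0.83), again with 0.

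Genes on a list of known inducers of Reg genes and their receptor candidate were called after S961 at a rate near that of all genes. The list holds Extl3, cytokines such as those of the IL-6 family, receptors including those for IL-6 and IL-22, and STAT and other signalling factors. Of its 30 measured members 1 passed the test for βKlf6KO over control after S961, where 4.36% of all 13591 genes did. It was the cytokine Lif, higher by 0.91 ± 0.26 (SE; limma adjusted p = 0.0464), and the median of the list was 0.08, against 0.02 for all genes. In the other 3 two-group comparisons 0 of 30 were called. Of 11 measured acute phase and epithelial defence genes, 0 were called by limma after S961, with all 11 above 0 at a median of 0.62, and 1 after saline, the complement gene C3 (1.66 ± 0.41, adjusted p = 0.0239). Of all genes 52.4% were above 0 after S961, and 2.78% were called after saline. The other 11 of the 22 listed genes were not analysed here.

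Single markers of duct and macrophage cells were also higher after S961 in libraries labelled βKlf6KO. Of 12 duct genes 1 was called, the secreted protein Spp1, which averaged 9.25 ± 0.47 log2 CPM in βKlf6KO S961 and 8.08 ± 0.29 in control S961 libraries (SD, n = 8 each; difference 1.16 ± 0.21 SE, adjusted p = 0.00502). Of all genes 4.36% were called in this comparison and 52.4% were above 0. The duct list had a median of 0.65 and 8 of 12 above 0. Its summed CPM, of which Spp1 is a large part, ran from 858.5 to 1588 in βKlf6KO S961 and from 543.6 to 871.7 in control S961 libraries. The mean log2 CPM of the 12 genes, in which each gene counts alike, overlapped between the groups. That mean ran from 4.28 to 5.07 in βKlf6KO S961 and from 2.98 to 4.53 in control S961 libraries. The duct transcription factor Sox9 differed by 0.85 (adjusted p = 0.0501) and the keratin Krt19 by 1.03 (adjusted p = 0.278). Of 14 macrophage genes 1 was called, Cd14 (1.09, adjusted p = 0.0333), and all 14 were above 0, with a summed CPM of 167.3 to 513.5 in βKlf6KO S961 and 131.9 to 236.8 in control S961 libraries. Of 14 islet genes the granule protein Chgb was higher (1.0), and 3 were lower, among them the β-cell transcription factor Pdx1 (-0.47) and the glucose transporter Slc2a2 (-0.88). The part of these cells in the Reg values was not tested.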

How the data were processed

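Islets were picked by hand and cultured overnight, and RNA of 120 to 150 islets per mouse was made into stranded poly(A) libraries read as 125-base single ends, per the labels' protocols. With 1 mouse per library, the replicate error is that between animals. The authors deposited log2 CPM values, scaled to library sizes that differ from the summed reads of the listed genes. The submitters' processing notes name edgeR, HTSeq 0.9.1, STAR 2.5.3a and the build GRCm38, without their order, and for the counting the strand setting is not given in the sources used. Whole reads were recovered within 0.05 for 100% of values, and voom weights on them called 680 genes for genotype after S961, against 593 on the deposited log2 values.

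The deposited log2 values were used as they are, after removing genes that reached 1 CPM in fewer than 6 libraries (13591 kept, 628 removed). A model with 1 mean for each of the 4 groups was fitted over 28 libraries in limma 3.58.1 (R 4.3.3), moderated by empirical Bayes with an intensity trend. Tests were two-sided, and called means a Benjamini-Hochberg adjusted p under 0.05 over all genes kept. Every adjusted p of a gene is from limma. Exact permutation tests compared group means of single members, without adjustment. Correlations used 100000 permutations, with adjustment over 21 relations.

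The members, gene lists, tests and alternatives were chosen with earlier results of these data known. Named genes were the members, the label checks Klf6, Ins1 and Ins2, the 5 genes with the highest r with each member, at most 3 called genes with the smallest p per list and comparison, and fixed defining markers. Of the genes this rule names, 2 are not reported here. The E-box CACCTG and the shared runs in promoter windows were looked for after the sequences were seen. Coordinates are from GENCODE M21, and promoter sequences from RefSeq (6 of 6 members matched). The fit was tested on simulated data. No pair of libraries within a group agreed within sampling noise (lowest chi-square over its degrees of freedom 32.1, in 86 pairs). Limits set from 3 reads cover counting error only.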

Additional observations from a re-analysis of the deposited data

Results flagged for a closer look

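Reg3a stood at 3.09 log2 CPM in control S961 replicate 5, apart from the other 7 libraries of its group at 5.39 to 6.73. Its gap to the nearest library was 0.634 of the group's range, above the critical value of 0.526 for 8 libraries. It was the only such library among 24 sets of 1 member and 1 group that were checked, and about 5% of such sets pass the critical value by chance. Without this library the Reg3a difference between βKlf6KO S961 and control S961 was 1.97 (adjusted p = 0.0586), as given above.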

How the results depend on the processing

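For βKlf6KO over control after S961, 2 of 6 members were called as reported. The count was 0 with library weights, 0 with the acinar mean as a covariate, 1 when only the groups compared were fitted, 5 with lane as a covariate and 5 without the 3 libraries that stood apart. It was 0 to 5 when 1 library was left out. It was 0 without control S961 replicates 2 or 5 or βKlf6KO S961 replicates 6, 7 or 8, 1 without control S961 replicate 3, and 5 without control S961 replicates 7 or 8. The difference stayed at 1.97 to 2.49 for Reg3a and 1.45 to 1.86 for Reg3b when 1 library was left out. Over all genes, 593 calls became 35 with only these groups in the fit and 102 with the acinar covariate. After saline the count of 0 members became 2 with library weights, where 378 calls over all genes became 3018. For S961 over saline in either genotype, and for the difference of responses, it was 0 under every setting run, by limma.

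With the replicate number as a block, 4 members were called after S961, as were 4.52% of all genes. The numbers were not taken to pair the mice, since deviations of same-numbered libraries correlated at -0.71 to 0.56. For genotype, 0 of 8 libraries after S961 and 0 of 6 after saline correlated best with their own number. For S961 over saline it was 3 of 6 in βKlf6KO and 0 of 6 in control libraries. Same-numbered libraries shared a lane in 8 of 8 pairs of the S961 groups and in 4 of 6 of the saline groups.

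Signs that turned belonged to differences that were not called. After saline, Reg3d stood at 0.31 with library weights, 0.0906 after quantile scaling, 0.0736 with the acinar covariate and 0.18 without the 3 libraries, and ran from -0.17 to 0.18 without 1 library. Reg3g stood at -0.0045 with lane and -0.012 without the 3 libraries, and ran from -0.0541 to 0.29. After S961, Reg1 stood at -0.0569 with the acinar covariate. For S961 in controls, Reg2 stood at -0.26 with the replicate block and -0.029 after quantile scaling and ran from -0.27 to 0.28, Reg3a ran from -0.19 to 0.81, and Reg3g stood at 0.15 with the acinar covariate. For the difference of responses, library weights gave -0.12 for Reg2 and -0.48 for Reg3a. The r of Reg3a with the acinar mean was -0.0036 with group means removed. The cause of these changes was not tested.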
